A study of Arabidopsis thaliana with 6 samples.

Results

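Flavonoids are made from phenylpropanoid precursors by a short chain of enzymes. Chalcone synthase builds the chalcone skeleton, chalcone isomerase closes its ring, and flavanone 3-hydroxylase makes the dihydroflavonol that flavonol synthase turns into kaempferol and quercetin. Dihydroflavonol reductase draws on the same intermediate for anthocyanins and condensed tannins. In Arabidopsis the related R2R3-MYB activators MYB12, MYB11 and MYB111 switch on the early genes, and the flavonols screen ultraviolet light in the epidermis and modulate auxin transport.

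The set described here holds 9 genes named by locus among the 34484 identifiers of the deposited table, and all 9 had a row. They were CHS (chalcone synthase, AT5G13930), CHI (chalcone isomerase, AT3G55120), CHIL (a chalcone isomerase-like protein that lacks the catalysis but promotes chalcone synthase activity, AT5G05270), F3H (flavanone 3-hydroxylase, AT3G51240), F3'H (flavonoid 3'-hydroxylase, which adds the hydroxyl group that leads to quercetin, AT5G07990), FLS1 (flavonol synthase, AT5G08640), MYB12 (AT2G47460), MYB11 (AT3G62610) and MYB111 (AT5G49330). The values were FPKM, fragments per kilobase of transcript scaled to the library's total, a per-length scale on which genes can be compared. Of the 9 genes, 8 passed a minimum mean of 1 FPKM over the 6 libraries and were tested, and F3H was listed at 0 in every library.

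Mature main stems of Arabidopsis thaliana, labelled as harvested 42 days after flowering from greenhouse plants under 16 h of light and 8 h of dark at 20 °C, were compared between wild type plants and plants mutated in γVPE, the gene of a vacuolar processing enzyme (a cysteine protease). Each genotype had 3 libraries. The columns WT_1 to WT_3 are the wild type, and WT_V_1 to WT_V_3 were read as the mutant because they were the group left over; their names do not spell the genotype, and the labels used here name neither the allele nor the accession. The transcript of the mutated gene, GAMMA-VPE, averaged 327.2 ± 1.57 FPKM over the WT_V libraries and 163.4 ± 0.863 FPKM over the WT libraries (SD, n = 3), so it was not lower in the set read as the mutant, and directions below are those of library names.

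The fragments behind the values could be recovered. With the mean length of a gene's transcripts in the TAIR10.1 annotation, 99.3 to 99.4% of the values above 0 in each library came out as whole fragments within 0.02, at scaling totals of 40307736 to 51012957 fragments per library, and so did all values of the 8 genes above 0. The titles number 3 replicates while the design text states that none were made, and nothing says the libraries came from separate plants, so p-values measure only how far these libraries spread, and that spread can be technical. The WT_V libraries also carried markers of other organs. The 10 seed storage and oil body markers summed to 16137 to 16412 FPKM in WT_V and to 0 to 0.0353 FPKM in WT, where 9 of them were at 0 in each library, and the 7 floral organ markers summed to 124.9 to 130.5 against 29.4 to 32.5 FPKM. The 4 fruit markers summed to 44.2 to 47.4 against 7.97 to 9.13 FPKM and the 11 tapetum and pollen markers to 27.7 to 28.4 against 18.7 to 20.5 FPKM. Of those 11, 3 were tested and went both ways: VGD1 (8.11 against 0.119 FPKM) and ATA7 (2.21 FPKM against 0 in each WT library) were called higher, and LAP6, which makes up most of the WT sum, lower (13.5 against 18.4 FPKM). VGD1 and ATA7 passed the minimum mean only through their WT_V values. The 10 stem vascular and fibre markers, none of them at 0 in WT, summed to 287.3 to 288.0 against 162.2 to 164.8 FPKM. In whole stems, more cells of a type and more RNA per cell cannot be told apart.

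Promoter windows of 4 members are shown as a description of sequence, and no link between motifs and differences was tested. Each is the 250 bases before the annotated gene start, read 5′ to 3′ from RefSeq's TAIR10.1 genome, while the build behind the deposited table is not given in the sources used here. Capitals mark matches, on either strand, to the G-box CACGTG, its core ACGT (which lies inside each G-box) and the MYB recognition element ACCTANC. The windows are chr5:4488226-4488475 (plus strand) for CHS, chr5:1563036-1563285 (plus strand) for CHIL, chr2:19476076-19476325 (plus strand) for MYB12 and chr5:2803583-2803832 (plus strand) for FLS1.
CHS: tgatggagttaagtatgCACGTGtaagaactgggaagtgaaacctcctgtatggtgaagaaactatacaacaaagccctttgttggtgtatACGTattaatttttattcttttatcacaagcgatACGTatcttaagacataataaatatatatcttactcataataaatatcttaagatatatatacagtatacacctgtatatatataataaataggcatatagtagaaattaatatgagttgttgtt
CHIL: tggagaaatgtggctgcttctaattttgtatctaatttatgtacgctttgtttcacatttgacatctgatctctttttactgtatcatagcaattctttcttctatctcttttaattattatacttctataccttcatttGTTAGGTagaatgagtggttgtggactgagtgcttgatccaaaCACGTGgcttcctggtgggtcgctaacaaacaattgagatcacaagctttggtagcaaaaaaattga
MYB12: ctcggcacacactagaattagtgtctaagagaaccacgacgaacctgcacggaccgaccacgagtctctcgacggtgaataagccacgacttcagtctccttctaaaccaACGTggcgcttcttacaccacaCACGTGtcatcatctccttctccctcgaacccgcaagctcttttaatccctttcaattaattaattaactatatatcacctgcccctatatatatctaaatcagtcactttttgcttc
FLS1: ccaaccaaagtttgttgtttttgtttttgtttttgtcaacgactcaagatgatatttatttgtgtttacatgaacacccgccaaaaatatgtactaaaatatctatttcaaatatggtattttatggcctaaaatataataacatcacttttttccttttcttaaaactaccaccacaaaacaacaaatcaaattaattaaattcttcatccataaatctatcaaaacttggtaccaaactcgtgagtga

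The CHS window held a G-box with its first base at position -233 relative to the start, and 2 more ACGT cores. The CHIL window held a G-box at position -67 and, on the other strand, the only MYB recognition element found in the 9 windows. FLS1, the last enzyme of the flavonol branch, had no match in its window, and neither had CHI or F3'H. MYB12 had its G-box at position -118. A G-box was present in 4 of the 9 windows (CHS, CHIL, F3H and MYB12), against 6.49% of the 27437 nuclear protein-coding genes with such a window. The MYB element was present in 1 of the 9 windows and in 5.55% of those promoters. The ACGT core was present in 6 of the 9 windows and in 44.1% of those promoters. No enrichment was tested. These matches describe letters, not bound sites. Bases outside the windows, such as those after the annotated start, were not searched.

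All 8 measurable genes were higher in WT_V, by 3.16 to 34.8 times in mean FPKM. The test was limma with an intensity trend on log2(FPKM + 1), fitted to the 19144 genes that passed the minimum mean and adjusted by the Benjamini-Hochberg method. At an adjusted p under 0.05 it called 8 of 8 tested members higher and 0 lower. MYB12, MYB11 and MYB111 averaged 0.265, 0.185 and 0.697 FPKM in WT, under the minimum of 1 FPKM. They passed the filter only through their WT_V values, so their entry to the test depended on the direction called. With no filter 8 members were called higher. Calls were common in these libraries, with 76.0% of all tested genes called, 51.9% higher and 24.1% lower, so the count alone does not set the members apart. Those calls were 9931 higher and 4619 lower, and the split depended on scaling: 6850 and 7213 after median-of-ratios scaling, 5777 and 8438 after quantile normalization. The 8 members had a median log2 difference of 2.01, and the 19144 tested genes one of 0.167. The 3 WT_V values lay above the 3 WT values for 8 members, as they did for 53.1% of tested genes.

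**Figure D1:**
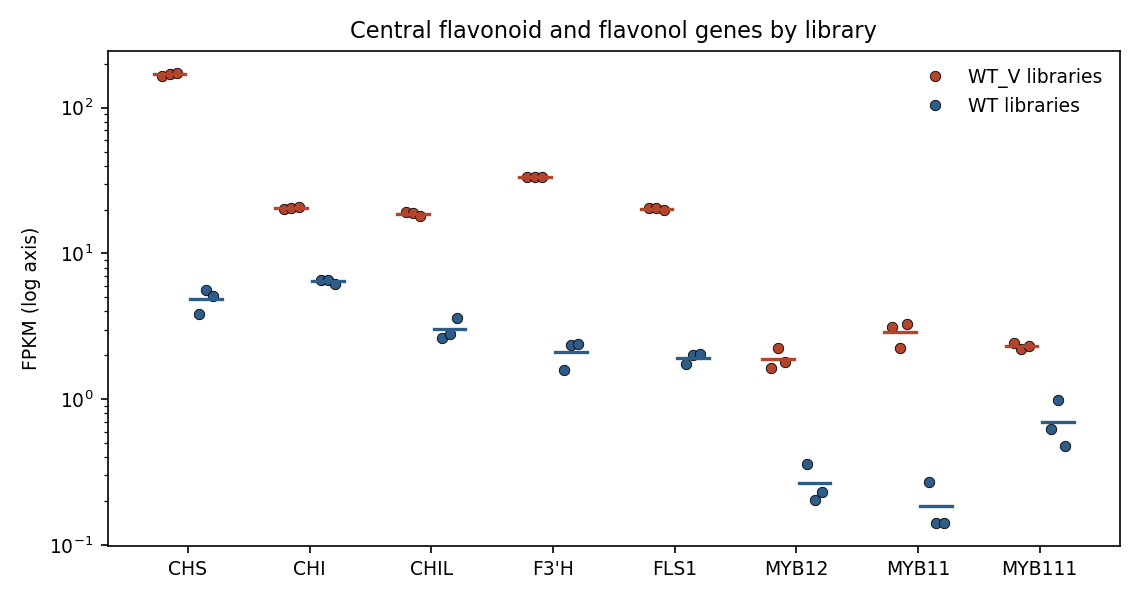
FPKM (log axis) of the 8 members above 0 in the 3 WT_V libraries (red) and the 3 WT libraries (blue), with a bar at each set's mean. For each gene shown, the 3 WT_V points lie above the 3 WT points; CHS reaches 172.3 FPKM and MYB11 falls to 0.141 FPKM.

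CHS makes the first committed step of the pathway. It stood at 165.9, 169.6 and 172.3 FPKM in WT_V_1, WT_V_2 and WT_V_3, and at 3.86, 5.61 and 5.11 FPKM in WT_1, WT_2 and WT_3. The sets were far apart, and these levels rest on 13903 to 14738 fragments per WT_V library and 265 to 444 per WT library. CHS rose by 4.87 ± 0.0895 on the log2 scale (SE; limma adjusted p = 5.67e-12), and its mean in WT_V was 34.8 times that in WT. Its log2 difference was above that of 99.45% of tested genes.

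CHI and CHIL, the catalytic isomerase and its non-catalytic relative, differed less. CHI measured 20.0, 20.4 and 20.7 FPKM in WT_V_1 to WT_V_3 and 6.58, 6.54 and 6.21 FPKM in WT_1 to WT_3. It had the smallest ratio of the 8 genes, 3.16 (log2 difference 1.52 ± 0.0494, limma adjusted p = 4.86e-10). CHIL measured 19.2, 19.0 and 18.1 FPKM against 2.64, 2.81 and 3.58 FPKM, a ratio of 6.23 (log2 difference 2.31 ± 0.0846, limma adjusted p = 1.33e-09). In WT_V the isomerase and its relative were at nearly the same level, whereas in WT CHIL was at 0.468 of the level of CHI.

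F3'H adds the hydroxyl group that leads from the kaempferol to the quercetin series. Its values were 33.4, 33.2 and 33.6 FPKM in WT_V_1 to WT_V_3 and 1.58, 2.34 and 2.40 FPKM in WT_1 to WT_3, or 123 to 210 fragments per WT library. The WT_V libraries agreed closely and WT_1 was the lowest of its set. The mean was 15.8 times higher in WT_V (log2 difference 3.48 ± 0.0952, limma adjusted p = 1.21e-10).

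FLS1 is the main flavonol synthase of Arabidopsis and the gene specific to the flavonol branch. It measured 20.4, 20.3 and 20.0 FPKM in WT_V_1 to WT_V_3 and 1.73, 2.002 and 2.03 FPKM in WT_1 to WT_3. The sets did not overlap and each was tight. FLS1 was 10.5 times higher in WT_V (log2 difference 2.86 ± 0.0645, limma adjusted p = 2.70e-11), and the log2 difference was 1.87 with a pseudocount of 5.

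F3H, the enzyme between CHI and FLS1, could not be measured. It was listed at 0 in all 6 libraries, and so was AT3G51238, an annotated long noncoding RNA on the opposite strand that covers 93.8% of the exon bases of F3H. Among nuclear protein-coding genes with 90% or more of their exon bases held by another gene on either strand, 502 of 561 (89.5%) were listed at 0 in all 6 libraries, against 1671 of 19821 (8.43%) of those with no shared base. The strand setting of the counting is not given in the sources used here, and why F3H is at 0 was not tested. No fold or ratio is given for it.

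**Figure D2:**
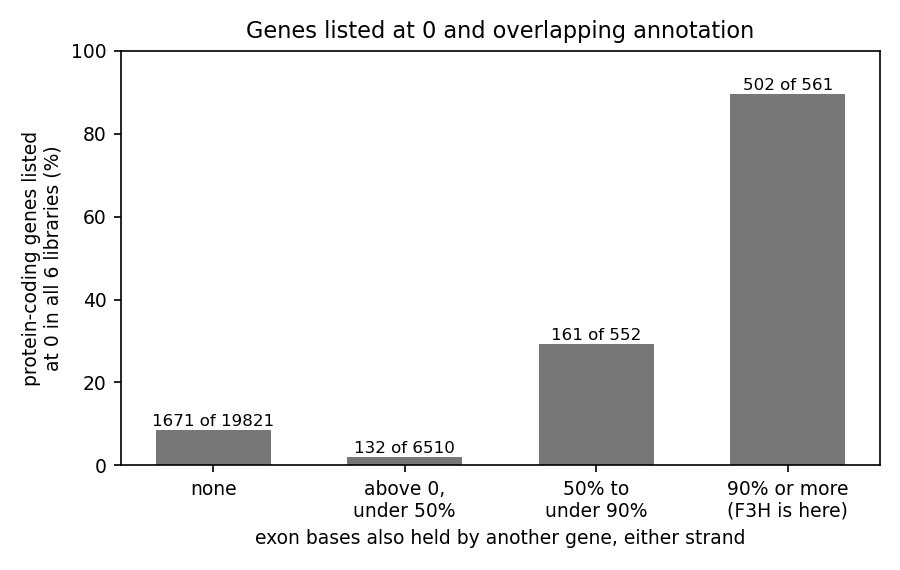
Percentage of nuclear protein-coding genes listed at 0 in all 6 libraries (bars, with counts above them), by the share of their exon bases that another annotated gene on either strand also holds. F3H, with 93.8% shared, is in the class in which 502 of 561 genes are at 0.

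The 3 MYB activators of the early genes were low in both sets and higher in WT_V. MYB12, best known from roots of seedlings, measured 1.64, 2.24 and 1.79 FPKM in WT_V_1 to WT_V_3 and 0.360, 0.204 and 0.231 FPKM in WT_1 to WT_3. MYB11 measured 3.15, 2.25 and 3.27 FPKM against 0.271, 0.141 and 0.142 FPKM. MYB111, best known from cotyledons, measured 2.42, 2.21 and 2.31 FPKM against 0.623, 0.989 and 0.478 FPKM. No WT value reached a WT_V value, but WT depth was thin, with 8 to 15 fragments per library for MYB11, 15 to 23 for MYB12 and 32 to 75 for MYB111.

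In ratio of means MYB11 was 15.7 times higher in WT_V, MYB12 7.13 times and MYB111 3.32 times. The log2 differences, which the pseudocount shrinks for genes this low, were 1.71 ± 0.124 for MYB11 (limma adjusted p = 3.65e-07), 1.19 ± 0.115 for MYB12 (limma adjusted p = 3.74e-06) and 0.977 ± 0.120 for MYB111 (limma adjusted p = 2.46e-05). The call of MYB111 ended with quantile normalization (log2 difference 0.283, limma adjusted p = 0.0549, the highest p among its alternatives). The exons of MYB11 share 8.01% of their bases with AT3G62615, an opposite-strand gene that was at 0 in all libraries, so fragments from that stretch may be missing from its values.

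The order of the regulators also differed between the sets. In WT, MYB111 held 60.0 ± 12.7% of the summed FPKM of the 3 genes, MYB12 23.7 ± 7.35% and MYB11 16.3 ± 5.52% (SD, n = 3). In WT_V, MYB11 had the highest mean share at 40.5 ± 6.01%, with MYB111 at 32.7 ± 1.14% and MYB12 at 26.8 ± 5.78%. Neighbours in this order overlapped in WT_V (MYB11 with MYB111, and MYB111 with MYB12), and in WT MYB12 overlapped with MYB11, while MYB111 lay above both. The log2 ratio of MYB11 to MYB12, on FPKM + 1, was 0.424 ± 0.363 in WT_V and -0.0947 ± 0.0158 in WT, a difference of 0.519 (exact two-sided permutation p = 0.1, adjusted p = 0.12 over 6 pairs). That of MYB111 to MYB12 differed by -0.210 (exact two-sided permutation p = 0.4, adjusted p = 0.4), and its libraries overlapped. This reading depends on the pseudocount: the difference was -0.808 with 0.1 (exact two-sided permutation p = 0.1, the smallest possible) and -0.0252 with 5 (exact p = 0.7), and the plain FPKM ratio was 1.23 in WT_V and 2.63 in WT.

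The enzyme genes and CHIL were reordered as well. In WT, CHI was highest, followed by CHS, CHIL, F3'H and FLS1, and of these neighbours F3'H and FLS1 overlapped. In WT_V the order was CHS, F3'H, CHI, FLS1 and CHIL, and CHI and FLS1 overlapped. CHS made up 64.6 ± 0.505% of the summed FPKM of these 5 genes, the non-catalytic CHIL included, in WT_V and 26.4 ± 2.76% in WT. CHI made up 7.78 ± 0.0451% and 35.4 ± 4.22%. The share of F3'H was 12.7 ± 0.128% in WT_V and 11.4 ± 1.53% in WT, and its libraries did not overlap by a narrow margin, with 12.65% the lowest in WT_V and 12.43% the highest in WT.

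**Figure D3:**
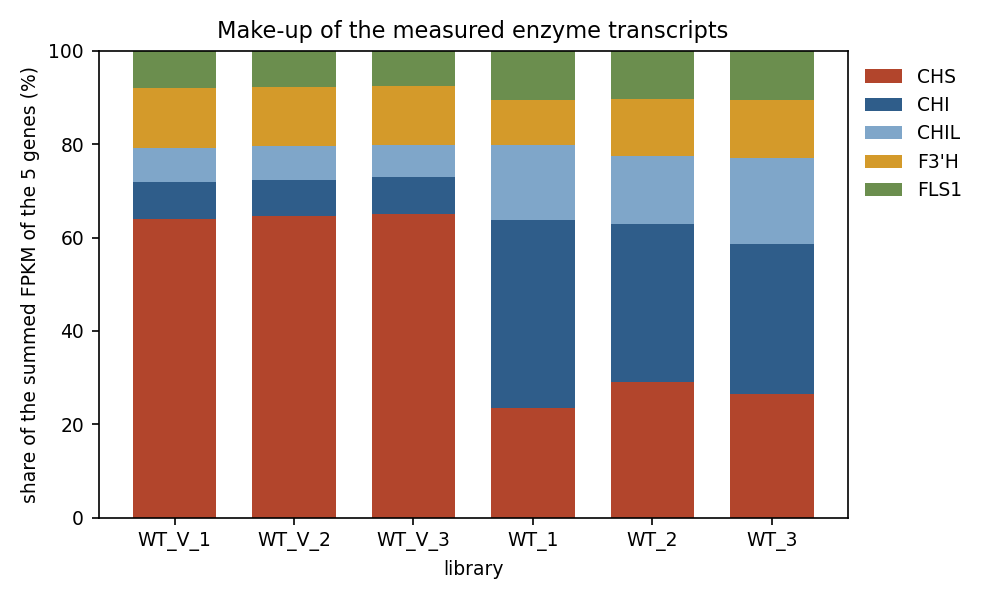
Stacked bars give the share (%) of CHS, CHI, CHIL, F3'H and FLS1 in their summed FPKM in each of the 6 libraries. CHS takes 64.1 to 65.1% in the WT_V libraries and 23.5 to 29.1% in the WT libraries, and CHI takes the largest share in each WT library.

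How unequal the differences were was measured as log2 ratios of FPKM + 1 within each library. CHI relative to CHS was at -2.99 ± 0.00400 in WT_V and 0.356 ± 0.248 in WT, a difference of -3.35 ± 0.143 (SE). FLS1 relative to CHS differed by -2.01 ± 0.0924, and CHIL relative to CHI by 0.785 ± 0.130. FLS1 relative to DFR, the gene of the reductase that shares its substrate, was at -2.26 ± 0.0357 in WT_V and 0.157 ± 0.0556 in WT, a difference of -2.42 ± 0.0382. In plain FPKM, FLS1 stood at 1.19 of DFR in WT and at 0.200 of DFR in WT_V. The libraries of the sets did not overlap for these 4 ratios, and each gave the smallest exact two-sided permutation p that 3 against 3 libraries allow, 0.1 (adjusted p = 0.12 over 6 pairs), which cannot pass 0.05. The difference in CHIL to CHI was 0.421 with a pseudocount of 5, and in MYB11 to MYB12 0.948 with 0.1 and 0.216 with 5. With pseudocounts of 0.1 and 5, that in FLS1 to CHS was -1.78 and -2.28. For FLS1 to DFR it was -2.55 and -2.14, and for CHI to CHS -3.46 and -3.00. These sizes thus moved with the pseudocount, by more than the SE shows for the FLS1 ratios. Both planned ratios with F3H were not computed.

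The genes around the set were read from lists. Their calls stand beside 51.9% of all tested genes called higher and 24.1% lower. As with the MYB members, 4CL3, BGLU15, FLS3, TT8 and others averaging under 1 FPKM in WT passed the filter only through WT_V. Their entry to the test depended on the direction called. Of 9 phenylpropanoid entry genes, which supply coumaroyl-CoA, 9 were called higher and 0 lower, at a median log2 difference of 0.910 (8 higher and 0 lower after median-of-ratios scaling, 8 and 1 after quantile normalization). PAL4, a phenylalanine ammonia-lyase gene, averaged 22.4 ± 0.719 FPKM in the WT_V libraries and 2.53 ± 0.268 in the WT libraries (SD, n = 3), and PAL1 41.9 ± 1.33 against 13.6 ± 0.528. 4CL3, the coumarate ligase gene linked to flavonoids, measured 4.12 ± 0.359 against 0.642 ± 0.122 FPKM, a ratio of 6.42. The call of PAL3 ended with median-of-ratios scaling and turned negative with quantile normalization (log2 difference -0.330).

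Of 10 flavonol tailoring genes 5 were tested and 5 were called higher (4 after either scaling, which ended the call of UGT78D1), beside 51.9% of all tested genes. Their median log2 difference was 0.893. The spread was wide. UGT78D1, a flavonol rhamnosyltransferase gene, was at 28.8 ± 1.10 FPKM in WT_V and 25.8 ± 1.22 in WT, and its log2 difference of 0.154 was -0.0396 with median-of-ratios scaling. UGT78D2, a flavonoid glucosyltransferase gene, measured 28.0 ± 0.797 against 14.6 ± 1.25 FPKM, OMT1, a methyltransferase of quercetin and of lignin precursors, 102.5 ± 1.69 against 57.7 ± 1.39, and RHM1, a rhamnose synthase gene, 34.5 ± 1.16 against 15.2 ± 0.510. BGLU15, which removes sugar from flavonol bisglycosides, measured 14.4 ± 0.947 against 0.946 ± 0.354 FPKM. UGT89C1, a flavonol 7-O-rhamnosyltransferase gene, was listed at 0 in all 6 libraries and shares 99.6% of its exon bases with another gene.

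The family copies went several ways. Of 6 tested FLS and CHI relatives 3 were called higher and 1 lower, or 2 and 2 after quantile normalization. Among all tested genes 51.9% were called higher and 24.1% lower, so these counts do not set the family apart. FLS3, another flavonol synthase-like gene, averaged 7.53 ± 0.0964 against 0.495 ± 0.130 FPKM, a ratio of 15.2. FLS2 was lower, at 20.6 ± 0.858 against 30.9 ± 1.22 FPKM. Its WT_V values overlapped those of FLS1, while in WT it lay above FLS1, which averaged 1.92 FPKM there. FLS5 at 2.19 ± 0.202 against 2.04 ± 0.248 FPKM did not pass (limma adjusted p = 0.518), and after quantile normalization it was called lower (log2 difference -0.584). FAP3, a fatty acid-binding protein of the chalcone isomerase fold, measured 14.8 ± 0.711 against 5.58 ± 1.31 FPKM.

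**Figure D4:**
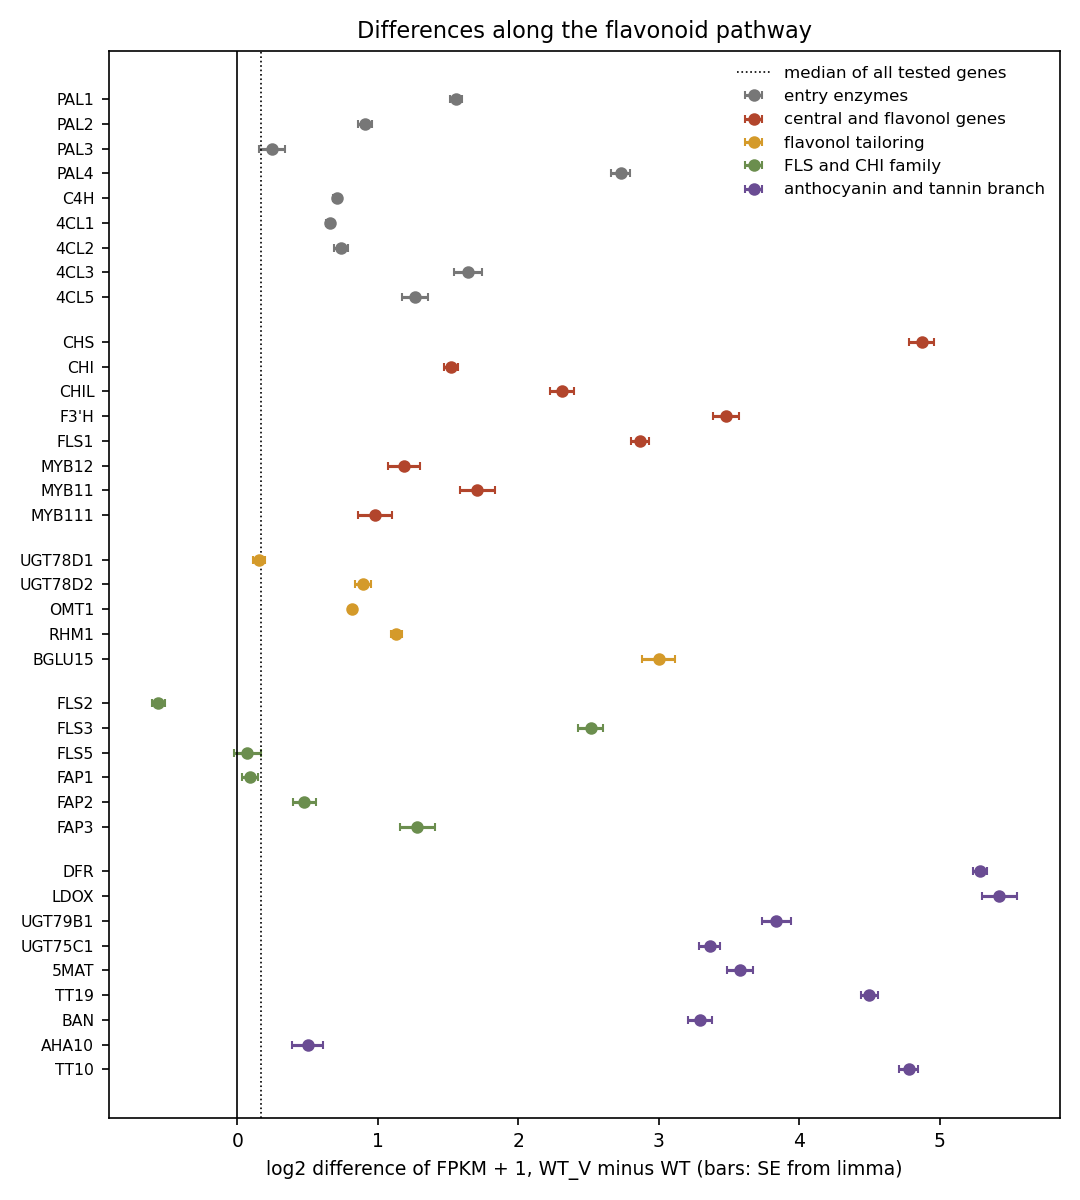
Log2 differences of FPKM + 1, WT_V minus WT (points; bars are the limma SE), for the tested genes of 5 pathway lists, with a dotted line at 0.167, the median of all tested genes. The anthocyanin and tannin genes reach 5.42, the members run from 0.977 to 4.87, and FLS2 is below 0.

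The competing branch had a larger median difference than the members. Of 10 anthocyanin and tannin genes 9 were tested and 9 called higher (8 after quantile normalization), beside 51.9% of all tested genes. Their median log2 difference was 3.84, against 2.01 for the members. Genes of this list averaging under 1 FPKM in WT, LDOX, BAN and TT10 among them, passed the filter only through WT_V. Their entry to the test thus depended on the direction called. With no filter 10 of 10 were called higher, at a median of 3.71. With a pseudocount of 5 the medians of the branch and the members were 2.10 and 1.36, and the difference between them was not tested. The member median includes the 3 low MYB genes, whose differences the pseudocount shrinks, and the branch list holds no regulator. With a minimum mean of 5 FPKM, which removes those 3 genes and AHA10, the medians were 4.17 and 2.86. AHA10, a proton pump gene of the seed coat, had a log2 difference of 0.499, below that of each tested member. After quantile normalization it was -0.190 and its call ended. DFR averaged 101.1 ± 3.29 against 1.62 ± 0.0901 FPKM, and LDOX, the next enzyme, 82.4 ± 2.26 against 0.971 ± 0.438. TT10, a laccase that oxidises seed coat flavonoids, averaged 26.4 ± 1.12 FPKM in WT_V, and its 3 WT values are 0. Among the 10 seed coat markers, some of which belong to this branch, 7 were tested, 6 were called higher and 1 lower. All tested genes had 51.9% called higher and 24.1% lower. The list summed to 101.2 to 102.4 FPKM in WT_V and 62.5 to 64.8 in WT. MUM2, the 1 called lower (41.9 against 55.4 FPKM), makes up most of the WT sum, so the sums understate the difference of the other markers. BAN, an anthocyanidin reductase gene of the seed coat, measured 11.9 ± 0.927 against 0.315 ± 0.0684 FPKM. The 9 epidermis markers, 9 called higher (7 after median-of-ratios scaling), summed to 866.4 to 882.8 against 589.3 to 603.7 FPKM. The part of seed, flower or epidermis RNA in the differences of the members was not tested.

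Other regulators did not move as a block. Their counts stand beside 51.9% of all tested genes called higher and 24.1% lower. Of 6 tested members of the MYB, bHLH and WD40 group that drives the late genes, 5 were called higher (4 after quantile normalization, and 1 lower after either scaling), led by TT8 (9.25 ± 0.148 against 0.365 ± 0.215 FPKM), MYB90 (51.6 ± 2.92 against 6.04 ± 0.262) and MYB75 (31.6 ± 1.42 against 5.12 ± 0.157). Of 12 light and ultraviolet-B signalling genes 3 were called higher and 6 lower (2 and 8 after median-of-ratios scaling, 2 and 9 after quantile normalization). HY5, a light-response factor that binds the CHS and MYB12 promoters, was at 14.8 ± 1.55 FPKM in WT_V and 12.9 ± 0.781 in WT (log2 difference 0.187, limma adjusted p = 0.0405), which became -0.000234 after median-of-ratios scaling and -0.0461 after quantile normalization. Its relative HYH was lower, at 8.24 ± 0.885 against 14.5 ± 0.820 FPKM, and so was BBX21, at 30.1 ± 1.55 against 40.8 ± 0.819, while BBX22 was higher, at 19.5 ± 0.360 against 14.5 ± 2.17.

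Of 10 repressors 3 were called higher and 5 lower (1 and 5 after median-of-ratios scaling, 2 and 7 after quantile normalization). On the deposited scale 51.9% of all tested genes were called higher and 24.1% lower. LBD39, which represses anthocyanin genes under nitrate supply, was at 53.2 ± 2.14 FPKM in WT_V and 109.6 ± 0.325 in WT, and its relative LBD37 at 50.2 ± 0.266 against 91.3 ± 2.90. MYB4, a repressor of phenylpropanoid genes, was higher, at 22.5 ± 1.40 against 11.4 ± 0.625 FPKM. MYBL2, which inhibits the late-gene complex, was at 20.8 ± 1.53 against 19.9 ± 2.18 FPKM and did not pass (limma adjusted p = 0.472). KFB-CHS, an F-box protein that targets chalcone synthase for degradation, was at 31.6 ± 0.844 against 27.1 ± 0.382 FPKM, a call that ended with median-of-ratios scaling (log2 difference 0.0163). Of 3 further flavonol regulators 1 was tested, WRKY23, known from roots. It was at 4.28 ± 0.229 against 2.95 ± 0.358 FPKM, and its log2 difference of 0.420 was -0.143 with quantile normalization.

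The genes most like CHS and FLS1 over the 6 libraries were found by the Euclidean distance between log2(FPKM + 1) profiles set to 0 at the WT mean. For CHS they were BGLU19 (distance 0.340), CSY1 (0.345), LCR62 (0.348), AT4G04460 (0.368) and AT2G19796 (0.377). Of these 5 genes 4 were listed at 0 in each WT library, so their likeness to CHS is one of difference on this scale and not of WT level. For FLS1 they were HA4 (distance 0.0614), VSP1 (0.135), ACS2 (0.137), SK3 (0.144) and AT3G19920 (0.145). Their likeness is again one of difference and not of level. SK3 was at 0 in each WT library, and VSP1 averaged 36.8 FPKM in WT, where FLS1 averaged 1.92 FPKM. HA4 measured 10.6 ± 0.226 FPKM in WT_V and 0.606 ± 0.0611 in WT.

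Among the members, sizes depended on the scale more than directions did. Over the 19144 tested genes the median shifted from 0.167 on the deposited scale to -0.0120 after median-of-ratios scaling and -0.0840 after quantile normalization. The 8 members stayed above 0 under both, with CHS at 4.69 and 4.74, CHI at 1.34 and 1.25, and FLS1 at 2.70 and 2.45. The MYB genes moved most relative to their size: MYB12 ranged from 0.387 to 2.46 over its alternatives, MYB11 from 0.604 to 3.41 and MYB111 from 0.283 to 1.65, the higher ends with a pseudocount of 0.1.

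**Figure D5:**
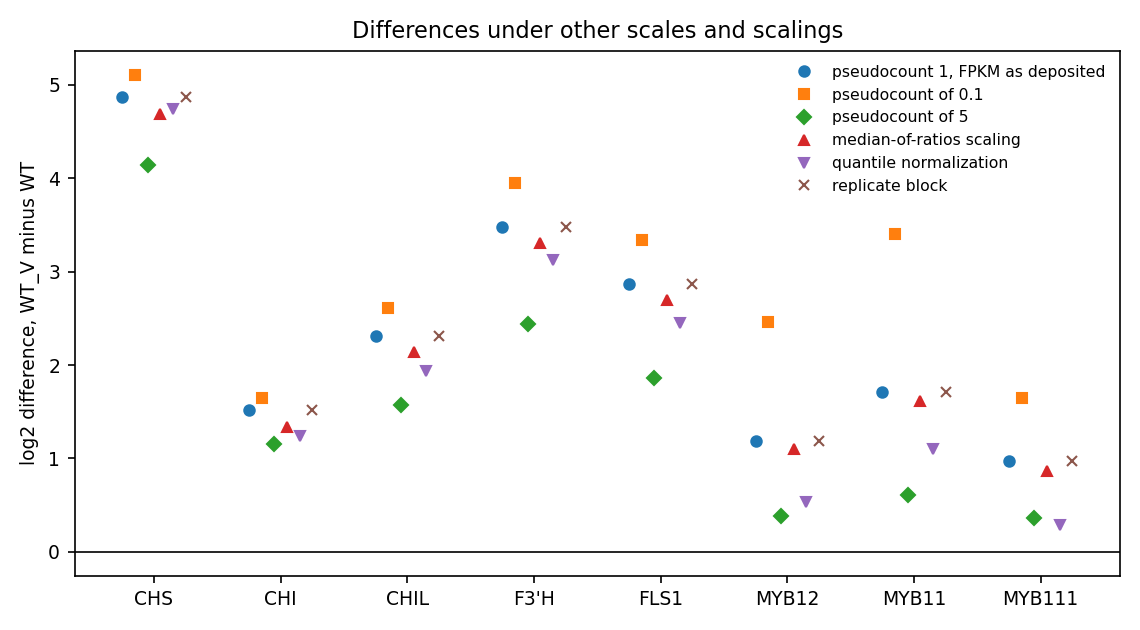
Log2 differences, WT_V minus WT, of the 8 tested members (x axis) under 6 combinations of pseudocount, scaling and replicate block. Each point lies above 0, and the MYB genes vary most relative to their size, from 0.283 to 1.65 for MYB111.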

How the data were processed

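Total RNA of main stems was sequenced in 3 libraries per genotype. The authors deposited 1 table of FPKM for 34484 identifiers. Bowtie2 2.2.3, TopHat2 2.0.12 and HTSeq 0.6.1 are named in the submitters' processing notes; the sources used here give no build, annotation or strand setting. Scaling totals were found from the steps of the FPKM values with the mean transcript length of TAIR10.1 genes, and fragments were used to describe depth, not for tests.

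A limma 3.58.1 fit (R 4.3.3) of WT_V minus WT took log2(FPKM + 1) of each gene averaging at least 1 FPKM over the 6 libraries, with an intensity trend and Benjamini-Hochberg adjustment over all genes. For low genes this scale understates a change; ratios are of mean FPKM. Pair ratios used the exact permutation test in SciPy 1.17.1. The fit was also run on simulated data in which few genes changed. Most genes were called here, so that run does not bear on the calls above. Exon overlap and the 250 base promoter windows came from RefSeq TAIR10.1.

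The 9 members and 15 gene lists were chosen with earlier results of these data known. Beside the members, up to 3 called genes per non-marker list with the largest change were named. So were 11 partner genes, UGT89C1 among them, and 5 genes most like CHS and FLS1 each. PAL3, FLS5, BAN, AHA10, VGD1, ATA7, LAP6 and MUM2 were named after their values were seen. Other settings tried were each library left out, a replicate block, quantile normalization, median-of-ratios scaling, a fit with no trend, pseudocounts of 0.1 and 5, and filters of 0 and 5 FPKM. Figures were drawn with matplotlib 3.10.9.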

Additional observations from a re-analysis of the deposited data

How the results depend on the processing

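Over 106 combinations of a member and an alternative, 105 kept the direction and the side of the threshold, 1 (MYB111 with quantile normalization) lost its call, and 0 reversed. The count of members called higher was 5 with a minimum mean of 5 FPKM, a filter that by its construction removes the 3 MYB genes, and 7 without any 1 of the WT_V libraries, where the mean of MYB12 fell under 1 FPKM. No member was called lower under any alternative run. Among all genes, 5777 were called higher with quantile normalization (9931 as reported), and the 4619 lower calls became 7213 after median-of-ratios scaling and 8438 after quantile normalization, so the split of calls in both directions depends on the scaling. All 54 alternatives of the 6 pair ratios kept their direction. The replicate numbers were not shown to pair libraries: deviations of same-numbered libraries from their set means correlated at -0.0157, -0.0156 and 0.0141, and not every library correlated best with its own number. With a replicate block 8 members were called higher, and 9868 genes in all. The WT levels of the MYB genes rest on 8 to 75 fragments per library, so their ratios are the least precise.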

Other observations

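Of the 135 loci on all lists, 5 were listed at 0 in all 6 libraries: F3H, UGT89C1, UGT73C6, CHI2 and CYP98A8. They were also the 5 listed loci with 90% or more of their exon bases held by another annotated gene, the lowest share being 93.8%. Genes of this kind in which the overlapping gene lies on the opposite strand alone numbered 511, of which 464 (90.8%) were at 0. The cause was not tested.

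The FPKM values of genes with several transcripts were whole fragments when the mean transcript length, rounded to a whole base, was used as the gene length, for CHIL (1239 bases) and FLS1 (1419 bases) as for genes with a single transcript.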
